A study of Homo sapiens with 12 samples.

Results

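Transcript levels of 50 genes of mitosis and the mitotic spindle were followed in A375 cells, a human melanoma line whose BRAF kinase carries an activating mutation. The genes were taken by name from a list of G2/M and spindle genes and are 50 of the 58347 genes in the count tables. No value served as a rule of choice, but the list was made with earlier results of these data known. All 50 passed the filter on low counts. They comprise 9 genes of the CDK1 engine and its switches, 6 mitotic kinases, 2 partners of Aurora B, 4 checkpoint genes, 6 genes of anaphase and protein breakdown, 7 of the centromere and kinetochore, 7 spindle motors and microtubule proteins, 6 of the midzone and cytokinesis, and 3 of chromosome structure and proliferation.

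The cells were exposed for 8 h to the vehicle dimethyl sulfoxide (DMSO), to tretinoin, to vemurafenib, or to the vemurafenib + tretinoin combination, with 3 replicate samples in each of the 4 groups. Vemurafenib inhibits mutant BRAF, and tretinoin (all-trans retinoic acid) activates the retinoic acid receptors. The labels list 5 µM for each group, the vehicle included, and do not say whether each drug of the combination was at 5 µM. Every group was the same unmodified line. The labels do not say whether the replicates came from separate dishes or passages, so the P-values measure only the spread between these samples. Total counts lay between 13510235 and 21534377 per library, and the 50 genes took 0.689% to 0.796% of them. Vemurafenib lowered the ERK target DUSP6 (log2 fold change -6.07 ± 0.13, adjusted P = 9.36e-16), and tretinoin raised the retinoid target DHRS3 (2.91 ± 0.094, adjusted P = 1.9e-12). Of 8 melanocyte lineage markers, SOX10 was listed at 0 in all 12 libraries and TYR reached at most 0.0453 CPM (counts scaled to a fixed library total), whereas MITF lay between 13.4 and 33.1 CPM. A fragment over exons of several genes counted for none. The overlap of the markers with other genes was not checked, so a listed 0 does not show that the transcript was absent. Of 8 markers of epithelial, immune and endothelial cells, KRT14 was the highest, at 4.69 to 31.9 CPM, and EPCAM and CD68 did not pass 0.364 and 0.0929 CPM. These markers moved with vemurafenib. Of the melanocyte markers, 2 of 4 that passed the filter rose (MITF and TYRP1) and none fell, and their sum was 26.3 to 31.1 CPM with DMSO, 24.3 to 28.95 with tretinoin, 44.3 to 46.0 with vemurafenib and 39.8 to 41.3 with the combination. Of the markers of other cell types, 3 of 5 rose (KRT14, PTPRC and VWF) and none fell, with sums of 14.35 to 21.0, 15.8 to 18.95, 35.1 to 38.0 and 32.2 to 43.2 CPM in the same order of groups. PTPRC rose with tretinoin as well. The part of these shifts in the results for mitotic genes was not tested.

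A cell enters mitosis when cyclin B bound to CDK1 becomes active. WEE1 holds that complex back by phosphorylating CDK1, and the CDC25 phosphatases release it. Polo and Aurora kinases then build the spindle, the checkpoint proteins delay anaphase until every kinetochore is attached, and CDC20 with the anaphase-promoting complex (APC/C) finally destroys cyclin B and securin. Transcripts of most of these genes peak in G2 and mitosis. Their promoters often carry a cell cycle genes homology region (CHR), read by the DREAM and MuvB complexes with B-MYB and FOXM1, next to CCAAT boxes bound by NF-Y. In RNA from many cells together, fewer cells in G2 or mitosis and less transcript per such cell cannot be told apart.

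The promoter letters of these genes are shown first, as background on the motifs that many but not all of them carry. RefSeq sequences (GRCh38.p14) were found for 43 of the 50 genes, and the 250 bases before the first listed start of each were searched on both strands. RACGAP1, WEE1, BUB3, AURKA, TPX2, TTK and UBE2C had no entry. The 100 bases before the start are printed 5′ to 3′ on the gene's strand, with capitals on TTTGAA and TTTAAA, the common CHR forms, and on CCAAT, also where they lie on the opposite strand and so read TTCAAA in the first case and ATTGG in the last. The first 6 genes came from the fixed core of the list and had a CHR form, and CCNB2 and HMMR were added after their values were seen, as genes that went up where CCNB1 and PLK1 went down.
CCNB1, chr5:69167050-69167149 on the plus strand: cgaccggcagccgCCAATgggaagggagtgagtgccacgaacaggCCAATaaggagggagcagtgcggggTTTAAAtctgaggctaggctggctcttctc
PLK1, chr16:23678789-23678888 on the plus strand: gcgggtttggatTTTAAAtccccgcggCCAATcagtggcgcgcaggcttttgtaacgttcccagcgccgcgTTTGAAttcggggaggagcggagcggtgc
CDC20, chr1:43358881-43358980 on the plus strand: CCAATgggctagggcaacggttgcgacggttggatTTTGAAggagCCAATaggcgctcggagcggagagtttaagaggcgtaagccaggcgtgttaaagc
BUB1B, chr15:40160969-40161068 on the plus strand: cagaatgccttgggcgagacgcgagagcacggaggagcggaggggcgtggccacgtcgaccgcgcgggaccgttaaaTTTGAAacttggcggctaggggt
MKI67, chr10:128126424-128126523 on the minus strand: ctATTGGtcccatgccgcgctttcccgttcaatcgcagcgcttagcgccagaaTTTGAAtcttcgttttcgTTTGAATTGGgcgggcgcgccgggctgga
CKS1B, chr1:154974581-154974680 on the plus strand: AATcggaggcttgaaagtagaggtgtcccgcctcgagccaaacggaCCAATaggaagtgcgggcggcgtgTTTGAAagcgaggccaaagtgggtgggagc
CCNB2, chr15:59105046-59105145 on the plus strand: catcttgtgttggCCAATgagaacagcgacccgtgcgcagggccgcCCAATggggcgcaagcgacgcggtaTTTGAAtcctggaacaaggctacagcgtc
HMMR, chr5:163460532-163460631 on the plus strand: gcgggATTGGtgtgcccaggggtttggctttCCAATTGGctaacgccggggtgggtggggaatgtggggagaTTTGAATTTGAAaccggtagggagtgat

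The capitals that open the CKS1B stretch are the end of a CCAAT that begins just before it. A CHR form was found in 28 of the 43 promoters (65.1%), against 22.1% of 27305 annotated promoters. Within the last 60 bases before the start it was found in 21 (48.8%), against 5.19%. TTTGAA alone was present in 22 (51.2%, against 13.6%) and TTTAAA in 12 (27.9%, against 11.4%). CCAAT was present in 33 (76.7%, against 33.0%), and at least 2 copies in 21 (48.8%, against 10.0%). The E2F forms TTTGGCGC and TTTCCCGC were each found in 1 promoter (2.33%, against 0.553% and 1.42%). A match is a string of letters and was not tested as a binding site.

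**Figure D1:**
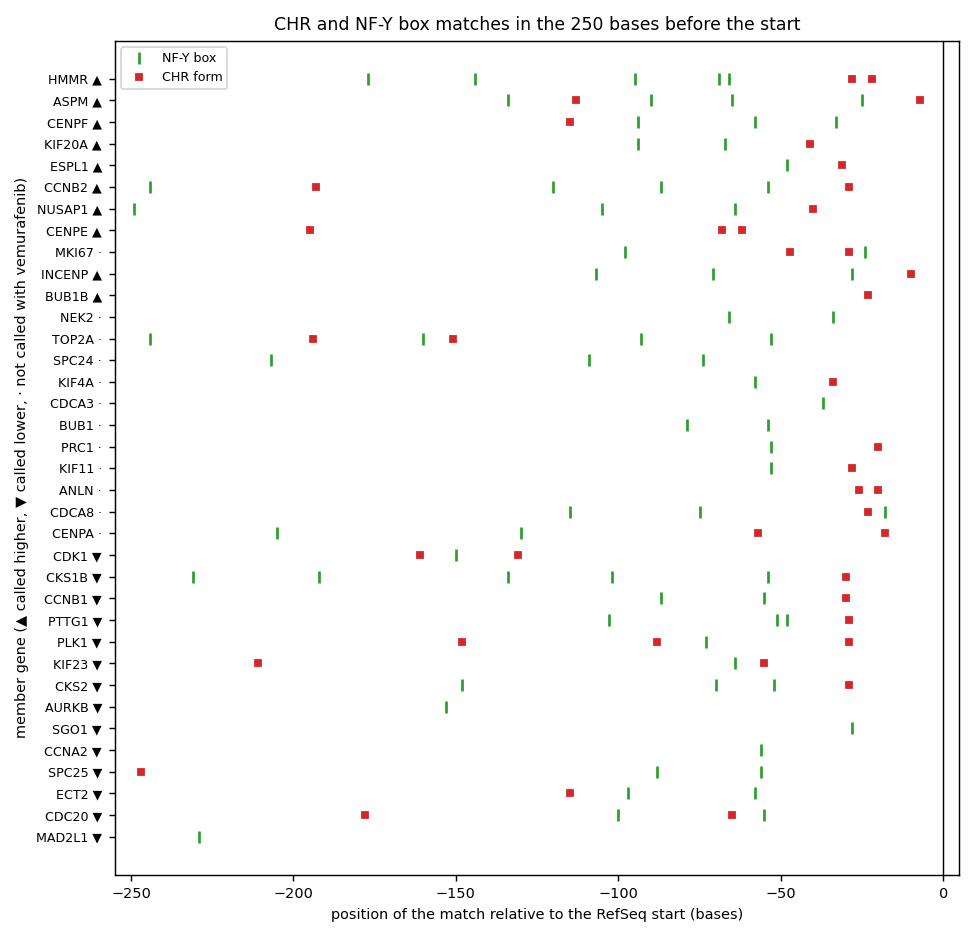
Position of each CHR form (red squares) and NF-Y box, CCAAT (green bars), relative to the RefSeq start in bases, for the 36 of 43 promoters with any match; genes are ordered by their change with vemurafenib, largest rise at the top, and the mark beside each name gives its call. Of 42 CHR matches, 20 begin 15 to 45 bases before the start, in 18 genes, among them genes called higher, lower and not called.

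Genes with a CHR form were called in both directions. Among the 28 genes with a CHR form, 10 were called higher and 10 lower with vemurafenib, and among the 15 without, 2 were higher and 6 lower. CCNB1 and CCNB2 each have a CHR form about the same distance from the start and a pair of CCAAT boxes in the printed stretch, and they were called in opposite directions. These counts are descriptions and the difference between them was not tested.

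Per length of transcript the 50 genes covered a wide range. In the DMSO libraries CDC20, the APC/C activator, was the highest at 238 ± 14.1 RPKM (counts scaled for library size and exon length; SD, n = 3), followed by the CDK1-binding protein CKS2 (200.2 ± 21.5), the APC/C ubiquitin carrier UBE2C (156 ± 6.90) and cyclin B1, CCNB1 (153 ± 8.31). UBE2C and CCNB1 lay within 1 SD of each other. At the other end, WEE1 was at 5.71 ± 0.648, CDC25C at 5.80 ± 0.324 and SGO1, the protector of centromeric cohesion, at 4.06 ± 0.454 RPKM. WEE1 and CDC25C also lay within 1 SD of each other. In the vemurafenib libraries the mean of CDC20, 157 RPKM, lay within 1 SD of CKS2 (159.7 ± 10.4 RPKM).

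Vemurafenib split the mitotic genes. Relative to vehicle control, 13 of the 50 were higher and 20 lower at adjusted P under 0.05 (edgeR quasi-likelihood test, Benjamini-Hochberg over 16740 genes), and 17 did not pass. That is 26.0% and 40.0% of the list. Over all genes tested, 26.4% were called higher and 26.3% lower, and over the 8630 genes within the list's range of counts, 20.9% and 38.8%. The shares of the list were thus near those of equally abundant genes. The counts by role given below rest on 2 to 9 genes each. They are to be read against these shares and do not set a role apart. The changes were small: the median log2 fold change of the list was -0.11, against 0.019 over all genes and -0.11 over the 8630 genes of like counts, and its range was -0.85 (WEE1) to 0.61 (HMMR). Only 8 of the 50 were at 1.2-fold or more and 12 at 0.8-fold or less.

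The balance of higher and lower genes depends on how libraries are scaled. With total counts in place of edgeR's TMM factors, the median of all genes with vemurafenib moved from 0.019 to 0.21 on the log2 scale. That of the 50 genes moved from -0.11 to 0.091, so that 21 of them were called higher and 8 lower. Of all genes, 39.3% were then called higher and 15.7% lower. Relative to the median of all genes the list was at -0.12 under both scalings. All 13 higher genes stayed higher and 8 of the 20 lower genes stayed lower under total counts: AURKA, BUB3, CCNA2, CDC20, ECT2, MAD2L1, MYBL2 and WEE1. UBE2C turned in sign, to 0.004. For the combination the median of all genes moved from 0.025 to 0.19 and that of the list from -0.13 to 0.028. There 20 of the 50 were higher and 12 lower, against 37.3% higher and 17.4% lower of all genes.

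**Figure D2:**
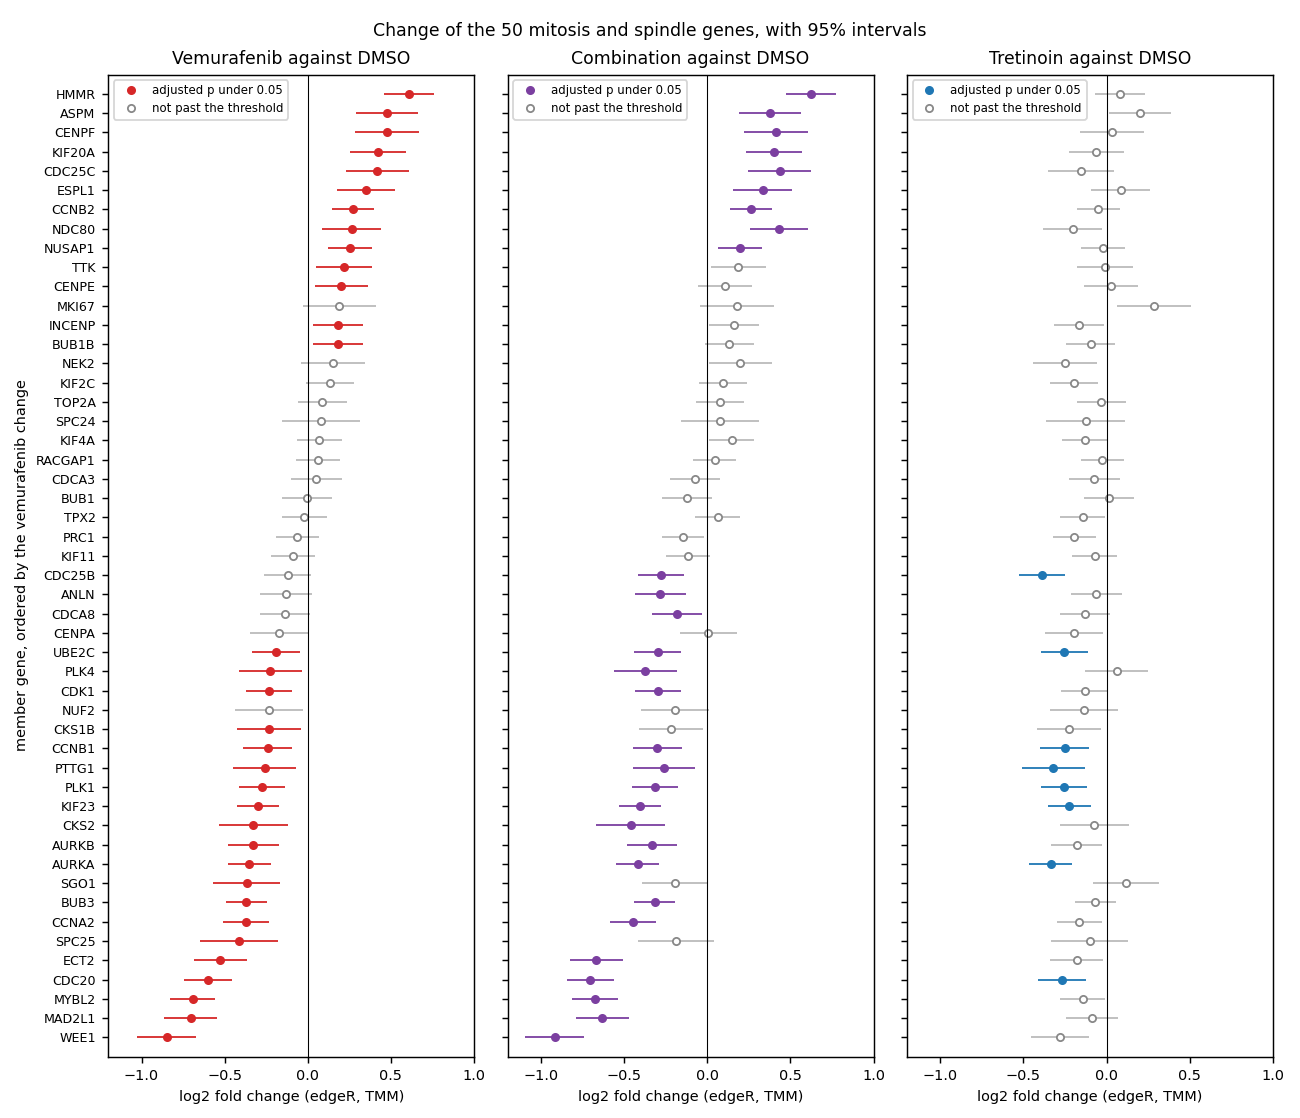
Log2 fold change of each of the 50 genes relative to DMSO in edgeR (x axis, TMM scaling) with its 95% interval, for vemurafenib, the combination and tretinoin; filled points have adjusted P under 0.05, and genes are in the order of their vemurafenib change. WEE1 is at the bottom with vemurafenib and HMMR at the top, 13 genes are filled on the right and 20 on the left, and with tretinoin 8 are filled, all on the left.

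Within the CDK1 engine, 6 of 9 genes fell with vemurafenib and 2 rose (2 and 2 with total counts). WEE1, the kinase that restrains CDK1 (chr11:9573681-9593457), held 829, 1016 and 1017 normalized counts in the DMSO libraries, 821, 774 and 765 with tretinoin, 536, 533 and 521 with vemurafenib and 533, 507 and 478 with the combination. Every library with vemurafenib was below every library without it. The log2 fold change was -0.85 ± 0.084 (SE; adjusted P = 1.81e-07) with vemurafenib and -0.92 ± 0.083 (adjusted P = 6.4e-08) with the combination, the largest fall of the list in both. With tretinoin it was -0.28 ± 0.082 (adjusted P = 0.0545), which missed the threshold.

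CDC25C, a phosphatase that reverses WEE1's mark on CDK1, went the other way. Its counts were 358, 365 and 328 with DMSO, 302, 325 and 317 with tretinoin, 438, 467 and 496 with vemurafenib and 494, 502 and 423 with the combination. The vemurafenib and combination libraries were all above the DMSO ones, by 0.42 ± 0.09 (adjusted P = 0.000877) and 0.43 ± 0.09 (adjusted P = 0.000562). Its relative CDC25B, which starts CDK1 activation at the centrosome, was at 6061, 6732 and 6099 with DMSO, 4939, 4907 and 4586 with tretinoin, 5587, 5743 and 6036 with vemurafenib and 5106, 5113 and 5351 with the combination. It was lowest with tretinoin (-0.39 ± 0.067, adjusted P = 0.00178), fell also with the combination (-0.28 ± 0.066, adjusted P = 0.00186) and did not pass with vemurafenib (-0.12 ± 0.066, adjusted P = 0.135). About 8.78% of CDC25C's annotated exon bases overlap FAM53C on the other strand, and counting ignored strand.

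The B-type cyclins were called in opposite directions. CCNB1 held 6917, 7525 and 6815 normalized counts with DMSO, 5445, 6238 and 6166 with tretinoin, 5924, 6149 and 5897 with vemurafenib and 5591, 5811 and 5864 with the combination. It fell with vemurafenib (-0.24 ± 0.069, adjusted P = 0.00711) and the combination (-0.30 ± 0.069, adjusted P = 0.00145). CCNB2 was at 2013, 1995 and 2002 with DMSO, 2045, 1862 and 1903 with tretinoin, 2483, 2373 and 2397 with vemurafenib and 2357, 2450 and 2414 with the combination. It rose by 0.27 (adjusted P = 0.00111) and 0.26 (adjusted P = 0.0013) on the log2 scale, and its vemurafenib libraries were above all others without that drug. Under total counts CCNB1's fall with vemurafenib shrank to -0.047 and was not called, while CCNB2 remained higher.

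CDK1 itself, the catalytic subunit, was at 2563, 2323 and 2507 with DMSO, 2163, 2255 and 2325 with tretinoin, 2089, 2160 and 2042 with vemurafenib and 2148, 1947 and 1935 with the combination. It fell by 0.23 (adjusted P = 0.00703) and 0.29 (adjusted P = 0.00117) on the log2 scale. Cyclin A2 (CCNA2), which acts in S and G2, fell more, with changes of -0.37 ± 0.065 (adjusted P = 0.000122) and -0.45 ± 0.065 (adjusted P = 1.82e-05). The small CDK-binding proteins CKS1B and CKS2 had overlapping groups or narrow gaps. CKS2 held 2384, 1944 and 2326 with DMSO, 1901, 2124 and 2299 with tretinoin, 1901, 1688 and 1717 with vemurafenib and 1444, 1836 and 1559 with the combination, with changes of -0.33 ± 0.098 (adjusted P = 0.00948) and -0.46 ± 0.098 (adjusted P = 0.000738). CKS1B held 3380, 3622 and 3030 with DMSO, 2442, 2951 and 3186 with tretinoin, 2685, 2748 and 3085 with vemurafenib and 2979, 2884 and 2775 with the combination. It passed with vemurafenib (-0.24 ± 0.092, adjusted P = 0.0387) and missed with the combination (-0.22 ± 0.091, adjusted P = 0.0558). Near-identical copies of CKS1B took counts as well, CKS1BP3 6.06% of CKS1B's own, so its level is uncertain by at least that share.

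Among the mitotic kinases, 4 of 6 fell with vemurafenib and 1 rose (1 and 2 with total counts). AURKA, the centrosomal Aurora kinase, was at 3714, 4104 and 3751 normalized counts with DMSO, 2963, 3099 and 3097 with tretinoin, 3108, 3019 and 2943 with vemurafenib and 2825, 2904 and 2923 with the combination. Its DMSO libraries were above all 9 treated ones, and the changes were -0.34 ± 0.062 (adjusted P = 0.00342) with tretinoin, -0.35 ± 0.062 (adjusted P = 0.000144) with vemurafenib and -0.42 ± 0.062 (adjusted P = 2.21e-05) with the combination. PLK1, the polo kinase of mitotic entry, was likewise above all treated libraries in DMSO, with 4483, 5102 and 4636 there, 4084, 3912 and 3920 with tretinoin, 3913, 3868 and 3970 with vemurafenib and 3677, 3761 and 4014 with the combination. Its changes were -0.28 ± 0.066 (adjusted P = 0.00199) with vemurafenib and -0.31 ± 0.066 (adjusted P = 0.00068) with the combination. At most 12.5% of PLK1's exon bases overlap genes on the other strand, as the overlaps were summed over genes.

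PLK4, which starts centriole duplication, held 616, 529 and 625 with DMSO, 641, 584 and 626 with tretinoin, 479.6, 542 and 491 with vemurafenib and 409.6, 484 and 473 with the combination. The DMSO and vemurafenib groups overlapped for PLK4, and its change of -0.23 ± 0.09 (adjusted P = 0.0433) was close to the threshold, whereas that with the combination was -0.37 ± 0.09 (adjusted P = 0.00212). AURKB, the kinase of the chromosomal passenger complex, fell by 0.33 with vemurafenib (adjusted P = 0.000974). Its partners did not follow: INCENP, the scaffold of the complex, rose by 0.18 (adjusted P = 0.0395) and CDCA8 (borealin) was at -0.14 ± 0.072 (adjusted P = 0.118). The checkpoint kinase TTK rose by 0.22 (adjusted P = 0.0294), and NEK2, a centrosome kinase, was at 0.15 ± 0.091 (adjusted P = 0.169).

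Among the spindle checkpoint genes, 2 of 4 were lower with vemurafenib and 1 higher under either scaling. MAD2L1, the inhibitor that binds CDC20 (chr4:120055608-120067074), was at 1827, 2151 and 2018 normalized counts with DMSO, 1784, 1962 and 1899 with tretinoin, 1267, 1184 and 1229 with vemurafenib and 1199, 1378 and 1296 with the combination. The libraries with vemurafenib were apart from the others, with changes of -0.70 ± 0.075 (adjusted P = 4.72e-07) and -0.63 ± 0.074 (adjusted P = 1.63e-06). BUB3, the adaptor that brings BUB proteins to kinetochores, fell from 5614, 5666 and 5532 with DMSO to 4269, 4298 and 4440 with vemurafenib and 4530, 4496 and 4475 with the combination, and was at 5190, 5448 and 5401 with tretinoin. Its changes were -0.37 ± 0.059 (adjusted P = 4.39e-05) and -0.32 ± 0.058 (adjusted P = 0.000197).

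BUB1B (BubR1), which joins MAD2L1 and BUB3 in the checkpoint complex, was at 1655, 1698 and 1902 with DMSO, 1619, 1647 and 1654 with tretinoin, 1993, 2131 and 1836 with vemurafenib and 1892, 1951 and 1919 with the combination. The groups overlapped, the rise of 0.18 ± 0.07 with vemurafenib passed narrowly (adjusted P = 0.0386), and 0.13 ± 0.07 with the combination did not (adjusted P = 0.123). BUB1, its kinase relative, was at -0.004 ± 0.071 (adjusted P = 0.968) with a 95% interval of -0.15 to 0.15. BUB1B shares 10.2% of its exon bases with a readthrough gene, BUB1B-PAK6, and fragments there were assigned to neither.

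Of the 6 genes of anaphase and protein breakdown, 4 fell with vemurafenib and 1 rose (1 and 2 with total counts). CDC20 held 8167, 9073 and 9063 normalized counts with DMSO, 6947, 7396 and 7493 with tretinoin, 5844, 5700 and 5795 with vemurafenib and 5095, 5437 and 5624 with the combination. The groups fell in steps without overlap between DMSO, tretinoin and the vemurafenib-treated groups. CDC20 changed by -0.60 ± 0.068 (adjusted P = 9.18e-07) with vemurafenib, -0.70 ± 0.068 (adjusted P = 1.33e-07) with the combination and -0.27 ± 0.067 (adjusted P = 0.0264) with tretinoin. UBE2C, at 3445, 3745 and 3692 with DMSO, 2861, 3079 and 3184 with tretinoin, 3239, 2987 and 3310 with vemurafenib and 2930, 2858 and 3064 with the combination, fell by 0.19 (adjusted P = 0.0247) with vemurafenib and 0.30 (adjusted P = 0.00125) with the combination. Securin and separase, an inhibitor and the protease it guards, were called in opposite directions with vemurafenib: PTTG1 (securin) at -0.26 ± 0.089 (adjusted P = 0.0212) and ESPL1 (separase) at 0.35 ± 0.083 (adjusted P = 0.00182). SGO1 fell by 0.37 (adjusted P = 0.0038), and CDCA3, a trigger of WEE1 breakdown, was at 0.052 ± 0.072 (adjusted P = 0.567).

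Of 7 centromere and kinetochore genes, 3 rose with vemurafenib and 1 fell (3 and 0 with total counts). CENPF, a large outer kinetochore protein, was at 4555, 3576 and 4693 normalized counts with DMSO, 4239, 4313 and 4566 with tretinoin, 5811, 6397 and 5634 with vemurafenib and 6141, 5517 and 5435 with the combination. Its changes were 0.48 ± 0.091 (adjusted P = 0.000297) and 0.41 ± 0.091 (adjusted P = 0.000982), with the 6 vemurafenib-treated libraries above the other 6. NDC80, the microtubule-binding subunit of the complex that bears its name, was at 866, 846 and 833 with DMSO, 624, 793 and 786 with tretinoin, 1043, 1002 and 1011 with vemurafenib and 1224, 1132 and 1076 with the combination. It rose by 0.26 (adjusted P = 0.0133) and 0.43 (adjusted P = 0.000299).

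The other 3 subunits of the NDC80 complex did not rise: with vemurafenib NUF2 was at -0.23 ± 0.097 (adjusted P = 0.0507), SPC24 at 0.077 ± 0.11 (adjusted P = 0.582), and SPC25 fell (-0.41 ± 0.11, adjusted P = 0.00458). Under total counts NUF2 and SPC25 were still below 0 and SPC24 above, and none of these was called. CENPE, the kinetochore motor, rose by 0.20 (adjusted P = 0.0351), and CENPA, the centromeric histone, was at -0.17 ± 0.082 (adjusted P = 0.086).

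Spindle motors and microtubule proteins rose or did not pass with vemurafenib: 3 of 7 were higher and none lower (6 and 0 with total counts). HMMR, a spindle pole protein that binds hyaluronan at the cell surface (chr5:163460203-163491945), was at 1220, 1174 and 1180 normalized counts with DMSO, 1251, 1209 and 1318 with tretinoin, 1973, 1781 and 1700 with vemurafenib and 1797, 1948 and 1767 with the combination. That was the largest rise of the list in both comparisons, 0.61 ± 0.071 (adjusted P = 1.36e-06) and 0.62 ± 0.071 (adjusted P = 9.56e-07), with no overlap between libraries with and without vemurafenib. ASPM, a spindle pole organizer, was at 2019, 1971 and 2186 with DMSO, 2736, 2205 and 2176 with tretinoin, 2946, 3078 and 2576 with vemurafenib and 2552, 2752 and 2725 with the combination. It rose by 0.48 (adjusted P = 0.00023) and 0.38 (adjusted P = 0.00168), though a tretinoin library reached the range of the vemurafenib ones.

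NUSAP1, a microtubule bundler, rose by 0.25 (adjusted P = 0.00253), but 62.2% of its exon bases are shared with another annotated gene, so that its count rests on the rest. The motors KIF11 (-0.088 ± 0.063, adjusted P = 0.255), KIF4A (0.069 ± 0.065, adjusted P = 0.39) and KIF2C (0.13 ± 0.068, adjusted P = 0.117) did not pass with vemurafenib, nor did TPX2, the activator of AURKA (-0.021 ± 0.065, adjusted P = 0.805).

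Among the genes of the midzone and cytokinesis, 2 of 6 were lower with vemurafenib and 1 higher (1 and 2 with total counts). ECT2, the exchange factor that activates RhoA at the cleavage plane (chr3:172750682-172821474), was at 2001, 2108 and 2076 normalized counts with DMSO, 2000, 1862 and 1600 with tretinoin, 1413, 1506 and 1372 with vemurafenib and 1282, 1310 and 1300 with the combination. It fell by 0.53 (adjusted P = 1.51e-05) and 0.67 (adjusted P = 9.51e-07) on the log2 scale. KIF20A, a midzone motor, was at 2660, 2526 and 2949 with DMSO, 2602, 2678 and 2524 with tretinoin, 3720, 3735 and 3442 with vemurafenib and 3180, 3779 and 3790 with the combination. It rose by 0.42 (adjusted P = 0.000237) and 0.40 (adjusted P = 0.00035), and the libraries with vemurafenib were above all the others. KIF23, the motor that partners RACGAP1 in centralspindlin, was at 2257, 2220 and 2331 with DMSO, 1909, 1924 and 1997 with tretinoin, 1833, 1850 and 1850 with vemurafenib and 1810, 1698 and 1642 with the combination. KIF23 fell by 0.30 (adjusted P = 0.000496) while RACGAP1 was at 0.061 ± 0.062 (adjusted P = 0.424). The bundler PRC1 (-0.064 ± 0.061, adjusted P = 0.398) and the ring protein ANLN (-0.13 ± 0.073, adjusted P = 0.145) did not pass. At most 64.9% of PRC1's exon bases are shared with other genes, as the overlaps were summed over genes.

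The proliferation markers TOP2A and MKI67 did not pass with TMM, and with total counts both were called higher with vemurafenib. TOP2A, the topoisomerase that untangles chromosomes, held 9420, 9276 and 10043 normalized counts with DMSO, 9642, 9342 and 9156 with tretinoin, 10245, 10481 and 9816 with vemurafenib and 10928, 9628 and 9814 with the combination. Its change with vemurafenib was 0.088 ± 0.069 (adjusted P = 0.298), with a 95% interval of -0.057 to 0.23. MKI67, which encodes the Ki-67 antigen, held 4662, 3375 and 4909 with DMSO, 5413, 5450 and 4906 with tretinoin, 4836, 5305 and 4629 with vemurafenib and 5089, 4809 and 4770 with the combination. The second DMSO library was the lowest of all 12 for MKI67, and the interval of its vemurafenib change ran from -0.031 to 0.41 (adjusted P = 0.139). MYBL2 (B-MYB), which helps switch on G2 genes, was at 5801, 6003 and 5830 with DMSO, 5043, 5536 and 5398 with tretinoin, 3673, 3469 and 3776 with vemurafenib and 3568, 3643 and 3837 with the combination. MYBL2 fell by 0.69 (adjusted P = 9.42e-08) and 0.67 (adjusted P = 1.22e-07), with no overlap. Over the 17 genes that did not pass with vemurafenib, the 95% intervals lay between -0.44 and 0.41.

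Some of the smaller vemurafenib calls rested on single libraries, of either the compared groups or the groups that only share the spread. Of the 12 fits that left out 1 library, INCENP passed in 3, BUB1B in 5, CKS1B and CENPE in 7 each, PLK4 and TTK in 8 each, UBE2C and PTTG1 in 9 each, and NDC80 in 10. The highest adjusted P among these fits was 0.213 for BUB1B and 0.0542 for NDC80, the latter lost without the third DMSO or the first vemurafenib library. With the combination, CDCA8 and PTTG1 passed in 9 and NUSAP1 in 10. The calls of WEE1, MAD2L1, MYBL2, CDC20, ECT2, HMMR, ASPM, CENPF, KIF20A and CDC25C with vemurafenib held in all 12.

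**Figure D3:**
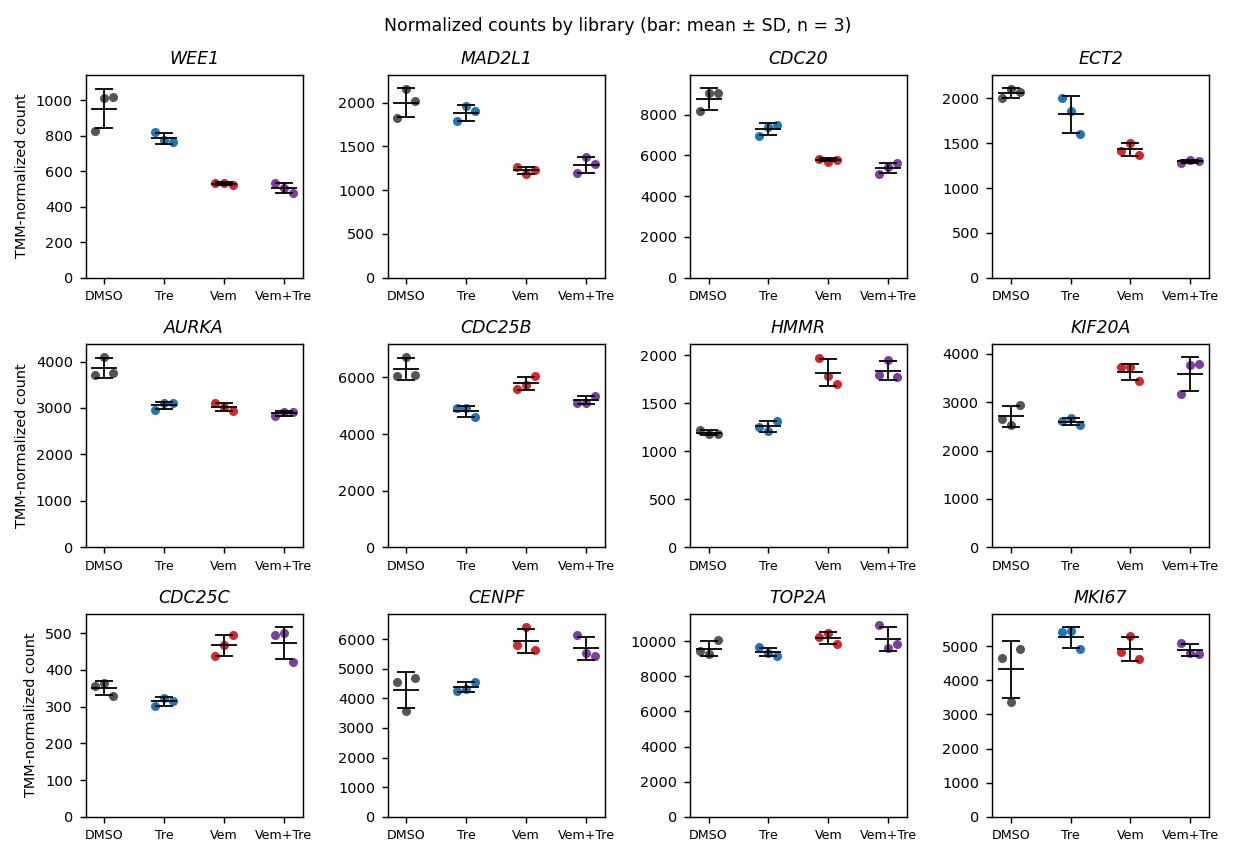
TMM-normalized counts (y axis, from 0) of 12 of the genes in each library, by group (DMSO, tretinoin, vemurafenib, vemurafenib + tretinoin; points are libraries, bars the mean ± SD of 3). WEE1, MAD2L1, CDC20 and ECT2 step down and HMMR, KIF20A, CDC25C and CENPF step up in both groups with vemurafenib. AURKA, CDC20 and CDC25B were called lower with tretinoin alone. AURKA and CDC20 were also called lower with vemurafenib alone, where CDC25B was not called. The TOP2A and MKI67 groups overlap.

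Ratios of partner genes within a library do not depend on scaling. The pairs were chosen after the values were seen, so they are given as a description. CCNB1 over CCNB2 was, as log2 of the counts, 1.78, 1.92 and 1.77 with DMSO, 1.25, 1.37 and 1.30 with vemurafenib and 1.25, 1.25 and 1.28 with the combination. For WEE1 over CDC25C, brake over accelerator, it was 1.21, 1.48 and 1.63 with DMSO, 1.44, 1.25 and 1.27 with tretinoin, 0.29, 0.19 and 0.071 with vemurafenib and 0.11, 0.014 and 0.18 with the combination. MAD2L1 over BUB1B was 0.14, 0.34 and 0.085 with DMSO and -0.65, -0.85 and -0.58 with vemurafenib. In all 3 pairs every library with vemurafenib was below every library without it. The reverse held for NDC80 over NUF2, at -0.96, -1.02 and -1.05 with DMSO and -0.40, -0.59 and -0.54 with vemurafenib. CKS1B over CKS2 overlapped between the groups.

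**Figure D4:**
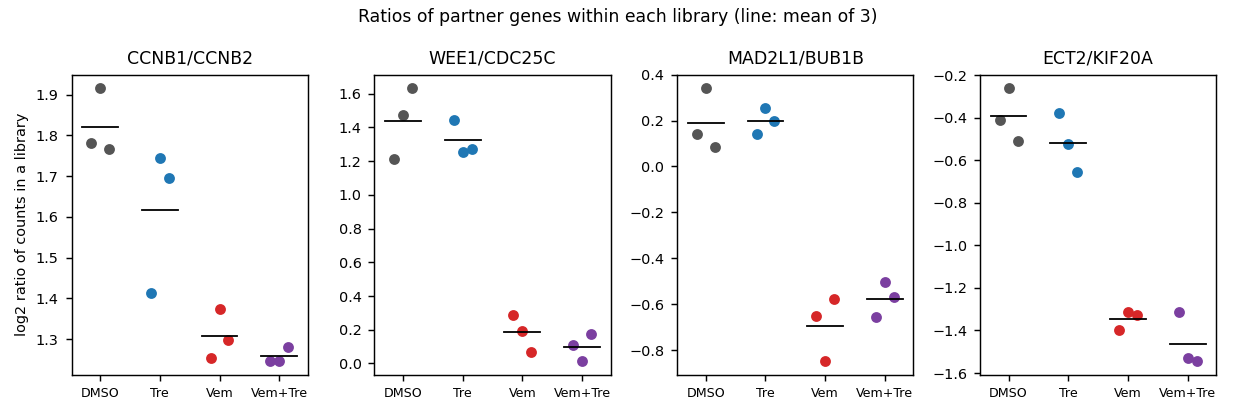
Log2 ratio of the counts of partner genes in each library (y axis, cut to the range of each pair), for CCNB1 over CCNB2, WEE1 over CDC25C, MAD2L1 over BUB1B and ECT2 over KIF20A; points are libraries and lines the mean of 3. The 6 libraries with vemurafenib lie below the 6 without it in all 4 pairs.

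The combination called 9 of the 50 genes higher and 20 lower relative to vehicle control, which is 18.0% and 40.0% of the list, against 27.1% and 26.5% of all genes and 21.0% and 39.0% of the 8630 genes of like counts. The comparisons of vemurafenib and of the combination share the DMSO libraries. Both called 17 of the genes lower and 9 higher, and none of the 50 was called in opposite directions. The same overlap was not counted over all genes, so it is not shown to be particular to the list. ANLN (-0.28 ± 0.073, adjusted P = 0.00366), CDC25B and CDCA8 (-0.18 ± 0.072, adjusted P = 0.0405) passed with the combination and not with vemurafenib. CKS1B, SGO1, SPC25, BUB1B, CENPE, INCENP and TTK passed with vemurafenib and not with the combination. A direct test called none of these differences: the combination relative to vemurafenib called 0 of the 50 genes in edgeR and 0 in DESeq2, against 2.27% higher and 2.2% lower of all genes. Only 2 of the 50 had an unadjusted P under 0.05 (CENPA and CDC25B), against 14.2% of all genes, and the smallest adjusted P was 0.266 (CDC25B, -0.16 ± 0.066). The 95% intervals of all 50 differences lay between -0.34 and 0.46.

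Tretinoin alone called 8 of the 50 genes lower and none higher relative to vehicle control, against 2.2% lower and 3.48% higher of all genes, and 3.37% and 3.74% of the genes of like counts. The 8 were AURKA, CCNB1, CDC20, CDC25B, KIF23, PLK1, PTTG1 and UBE2C, and changes were below 0 for 41 of the 50, with a median of -0.13 against 0.011 over all genes and -0.023 over those of like counts. CDC25B (-0.39 ± 0.067, adjusted P = 0.00178) and AURKA (-0.34 ± 0.062, adjusted P = 0.00342) changed most, and their DMSO and tretinoin libraries did not overlap. PLK1 (-0.26 ± 0.066, adjusted P = 0.0304), UBE2C (-0.25 ± 0.068, adjusted P = 0.0357), KIF23 (-0.22 ± 0.061, adjusted P = 0.0385), CCNB1 (-0.25 ± 0.069, adjusted P = 0.0409) and PTTG1 (-0.32 ± 0.089, adjusted P = 0.0446) were nearer to the threshold. MKI67 was at 0.28 ± 0.11 (adjusted P = 0.119).

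The tretinoin count was not stable. With a library left out, the count was 2 without the second DMSO library or the second tretinoin library, 3 without the third DMSO, the first or second vemurafenib or the second combination library, 4 without the third combination library and 5 without the third vemurafenib library, since the fit shares one spread. It was 2 with total counts, against 1.04% of all genes called lower. The list's median was then -0.06 and that of all genes 0.083. CDC25B and AURKA passed in each of the 12 fits that left out a library. The change with tretinoin also went with exon length over the 50 genes (Spearman rho 0.47, against 0.14 over 16681 genes, a description), and with GC content (-0.38, against -0.11). Among single libraries, the length relation ran from -0.35 in the second DMSO library to 0.38 in the first tretinoin and the second vemurafenib library, and its part in the result was not tested.

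Vemurafenib added to tretinoin called 16 of the 50 genes higher and 12 lower relative to tretinoin alone, which is 32.0% and 24.0% of the list, against 24.1% and 25% of all genes and 20.6% and 35.9% of the genes of like counts. This comparison shares no library with that of vemurafenib and DMSO. All 13 genes that vemurafenib alone raised had a positive change here and 11 were called higher, while 18 of the 20 it lowered had a negative change and 11 were called lower. CKS1B and PTTG1 were the exceptions, at 0.0084 ± 0.092 (adjusted P = 0.948) and 0.058 ± 0.089 (adjusted P = 0.62). WEE1 changed by -0.64 ± 0.084 (adjusted P = 6.67e-06), MAD2L1 by -0.54 ± 0.075 (adjusted P = 1.05e-05), NDC80 by 0.63 ± 0.084 (adjusted P = 6.66e-06) and HMMR by 0.54 ± 0.07 (adjusted P = 5.43e-06). Across the 50 genes, which are not independent replicates, the changes correlated (Pearson's r 0.88, Spearman's rho 0.86). The same correlation and the same kept calls were not computed over all genes, so the agreement is not shown to be particular to the list. NEK2, KIF2C, KIF4A, TPX2 and CENPA were called higher here and not with vemurafenib alone. Of the 12 fits that left out 1 library, CENPA passed in 2 (highest adjusted P 0.207), TTK in 3, ESPL1 in 8, KIF23 in 9, TPX2 in 10, and BUB1B and ANLN in 11 each, and the other calls of this comparison held in all 12.

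The corresponding pair for tretinoin, alone and on top of vemurafenib, showed no such relation (r 0.047, rho 0.038 over the 50 genes). All 8 genes lowered by tretinoin alone were below 0 on top of vemurafenib, with a median of -0.085 and none called. Of all 50 genes, 35 were below 0 there, with a median of -0.027. The interaction, the difference between tretinoin's change with and without vemurafenib, was called for 0 of 50 genes by edgeR and 0 by DESeq2, against 0.382% higher and 0.424% lower of all genes. An unadjusted P under 0.05 was found for 10 of the 50, 9 positive and 1 negative (ASPM), against 15.6% of all genes. The largest were CENPA (0.38 ± 0.12, adjusted P = 0.15) and NDC80 (0.37 ± 0.12, adjusted P = 0.166). Its values went with exon length too (rho -0.55, against -0.19 over all genes), whose part was not tested.

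**Figure D5:**
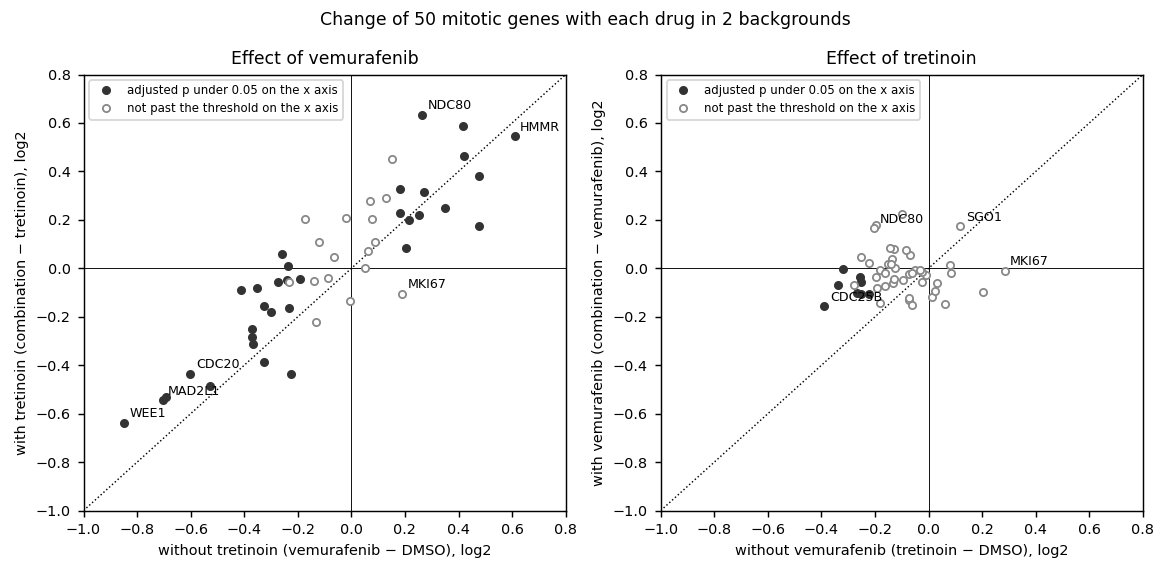
Log2 fold change of the 50 genes with vemurafenib (left) and tretinoin (right), without the other drug (x axis) and on top of it (y axis); filled points have adjusted P under 0.05 on the x axis, and the dotted line marks equal change. On the left the points follow the line (r 0.88), and on the right they spread around 0 on the y axis (r 0.047).

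Other genes of mitosis were taken from further lists that hold none of the 50 genes. Of 109 such genes, 8 were higher with vemurafenib and 52 lower, but 31 higher and 20 lower with total counts, so that the balance turned with the scaling. The kinetochore and centromere list had 2 higher and 17 lower of 34, condensin and cohesin 1 and 11 of 18, the APC/C and entry list 2 and 12 of 25, and the spindle and cytokinesis list 3 and 12 of 32. Of 23 regulators of mitotic transcription, 4 were higher and 10 lower. With TMM, 26.4% of all genes were called higher and 26.3% lower. Over the 8630 genes within the range of counts of the 50 genes the shares were 20.9% and 38.8%. The counts by list are to be read against these shares. By comparison 29 of 32 S-phase licensing and replication genes fell and none rose, with a median of -0.55, and with total counts 22 fell and 1 rose, with a median of -0.35. Of all genes, 39.3% were called higher and 15.7% lower with total counts.

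Among the called genes of these lists CDC25A, the phosphatase of the G1/S and G2/M transitions, fell most, from 2465, 2993 and 2777 normalized counts with DMSO to 733, 810.3 and 775 with vemurafenib (-1.83 ± 0.077, adjusted P = 2.87e-12). E2F1, a driver of S-phase transcription, fell from 2125, 2228 and 2152 to 865, 869 and 859 (-1.33 ± 0.067, adjusted P = 3.15e-11), and GMNN, the inhibitor of licensing, changed by -0.91 ± 0.094 (adjusted P = 3.38e-07). Citron kinase, CIT (0.57 ± 0.10, adjusted P = 0.000159), the centromere protein CENPI (0.55 ± 0.14, adjusted P = 0.0023) and the CDK inhibitor CDKN1A (0.53 ± 0.075, adjusted P = 1.51e-05) rose most of those called. FOXM1, a transcription factor of G2 genes, held 2939, 2770 and 3248 with DMSO and 3283, 3161 and 2999 with vemurafenib, a change of 0.076 ± 0.099 (adjusted P = 0.54), which became 0.27 (adjusted P = 0.041) with total counts. Survivin, BIRC5, of the passenger complex fell with TMM (-0.26 ± 0.08, adjusted P = 0.0109) and was not called with total counts (-0.065).

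The spread of 3 libraries limited the smallest changes. Over the 17 members not called with vemurafenib, the median distance from the log2 fold change to the bound of its 95% interval was 0.15. A gene with a smaller change that missed the threshold is thus not shown to be unchanged. The adjusted threshold asks for more than this interval. NUF2 and CENPA were among the genes that changed by more than 0.15 and missed it.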

How the data were processed

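RNA from 12 A375 libraries, 3 for each of 4 treatments named in the labels, was analysed. The authors enriched poly(A) RNA, made stranded paired-end libraries, aligned reads to GRCh38.p10 with STAR 2.5.3a (submitters' processing notes) and counted fragments per GENCODE 27 gene in union mode, ignoring strand. The deposited values are raw counts per gene without normalization, and a fragment over exons of several genes counts for none. Libraries held 13510235 to 21534377 counts, and replicates differed beyond sampling noise (chi-square per degree of freedom 2.69 to 24.42). Of 58347 identifiers, 58084 matched GENCODE 29, used here for symbols, positions and exon lengths.

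Genes were filtered by filterByExpr (16740 left), scaled by TMM (factors 0.901 to 1.074) and fitted with edgeR 4.0.16 in R 4.3.3 (glmQLFit, glmQLFTest) on all 12 libraries with a term per group and no block. P-values were adjusted by Benjamini-Hochberg in each comparison, threshold 0.05. Standard errors are the log2 fold change over the square root of F. Normalized counts are TMM counts scaled to the mean library. The interaction is (combination - vemurafenib) - (tretinoin - DMSO). Alternatives were a replicate block, fits to the compared groups alone, fits without each library in turn, a minimum of 10 counts per library for each gene or no filter, total-count scaling, DESeq2 1.42.0, and DESeq2 size factors in edgeR.

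Members and lists were chosen with earlier results of these data known. Named genes are a fixed core of 15, the 5 largest rises and falls past the threshold with vemurafenib and with the combination, the 6 smallest P past it with tretinoin, and in the other lists the 3 largest rises and falls past it with vemurafenib, FOXM1, BIRC5 and CDKN1A. Other members are given by role. The script was tested on simulated counts, with 100 changes each of 0.25 and 0.5 on the log2 scale for vemurafenib against DMSO. It recovered 4 and 62 of them at the threshold, with 3 false calls. Far fewer genes changed there than in these data. Python 3.11.15, numpy 2.4.6, pandas 2.3.3, scipy 1.17.1 and matplotlib 3.10.9 served the other steps.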

Additional observations from a re-analysis of the deposited data

How the results depend on the processing

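Of 50 changes of named genes that passed with a single drug or the combination, 49 kept direction and call in DESeq2 and 50 with DESeq2's size factors in edgeR. With total counts 32 did, 17 lost the call and 1 turned in sign, UBE2C with vemurafenib, to 0.004. Total counts also gave 21 genes higher and 8 lower with vemurafenib, 20 higher and 12 lower with the combination, and 2 lower with tretinoin. These shifts follow the move in the median of all genes. Of all genes, total counts called 39.3% higher and 15.7% lower with vemurafenib. The shares were 37.3% and 17.4% with the combination, and 4.53% and 1.04% with tretinoin. At least 10 counts in every sample gave 14 higher with the combination, where the cause was not tested. For tretinoin, fitting without a low-count filter gave 1 gene higher (0 with the filter) and 5 lower, and fitting only the groups compared gave 1 lower. With the replicate block the counts were 3 lower for tretinoin, 10 higher and 18 lower for vemurafenib, and 9 higher and 19 lower for the combination. Deviations of samples with the same number had a mean correlation of -0.031 over 18 pairs (-0.143 to 0.087). For 36 pairs of different number it was 0.015. The labels do not say whether a number stands for a shared day or batch, and a mean over all genes cannot decide it. Leaving out each library gave 2 to 9 genes lower with tretinoin, 9 to 14 higher and 17 to 22 lower with vemurafenib, 8 to 13 higher and 18 to 23 lower with the combination, and 11 to 16 higher and 11 to 15 lower for the combination relative to tretinoin. Leaving the unfiltered fit aside, 8 of 13 higher and 8 of 20 lower vemurafenib calls, 8 of 9 and 12 of 20 combination calls and 1 of 8 tretinoin calls, CDC25B, held in every alternative. No alternative called any of the 50 genes in the combination relative to vemurafenib or in the interaction. With 3 libraries a group, the median reach of a 95% interval over the 17 members not called with vemurafenib was about 0.15. That is not the limit of the adjusted threshold, which NUF2 and CENPA, among others, missed with larger changes.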
